A study of Mus musculus with 14 samples.

Results

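The IGF, Akt and mTOR pathway genes are 30 genes chosen by their symbols, of 24359 genes measured by RNA sequencing in mouse tibialis anterior, a fast muscle of the shin. They were grouped by role into 7 ligands and binding proteins, 4 receptors and adaptors, 11 kinases with their targets, and 8 inhibitors of PI3K or mTOR. The muscles came from C57Bl/6 mice and had been treated with follistatin, a secreted protein that binds myostatin and activins, or were controls. Follistatin libraries numbered 4 at day 3, 2 at day 7 and 2 at day 14, against 3, 2 and 1 control libraries of the same days. The study's design joins days 7 and 14 into a chronic set, which holds 4 follistatin and 3 control libraries. The labels give neither the way follistatin was delivered nor what controls received, and do not say that replicates were separate animals, so p-values stand for the spread among these libraries alone, which may be technical.

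Insulin-like growth factors and insulin bind receptor tyrosine kinases at the cell surface, which phosphorylate the adaptors Irs1 and Irs2. The adaptors recruit PI3K, whose lipid product activates the kinase Akt, and Akt in turn releases mTOR complex 1 from inhibition by Tsc1 and Tsc2, which act through Rheb. In muscle this chain is known for raising protein synthesis and for holding FoxO transcription factors, which drive genes of protein breakdown, out of the nucleus. Much of its control is by phosphorylation, which mRNA levels do not record.

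Fst, the follistatin gene, checked the labels. It averaged 57.6 ± 8.16 FPKM in follistatin libraries of day 3 (SD, n = 4) and 1.18 ± 0.212 FPKM in their controls (n = 3). In the chronic set it held 367 and 407 (day 7) and 1315 and 1421 FPKM (day 14) with follistatin, and lay between 0.808 and 1.17 FPKM in controls. FPKM are fragments per kilobase of transcript, scaled by the authors to each library's mapped fragments, and a library's values summed to between 364513 and 532859. In the chronic set these library sums did not overlap, at 364513 to 433552 with follistatin and 485755 to 510584 in controls. They include the genes listed at 0 that are named below, and the cause of the difference was not tested. Read numbers are not in the files, so absolute depth is unknown. Markers of the labelled tissue were high, since 10 myofibre genes summed to between 58040 and 69270 FPKM in follistatin libraries of day 3 and to between 72790 and 78980 FPKM in controls. Of these 10, Myh4 is listed at 0 in the follistatin libraries of day 3 and not in their controls, Acta1, Myh1, Myh4 and Tnnt3 are listed at 0 in every chronic library, and Ckm, Pvalb and Ttn in the chronic follistatin libraries alone. The authors marked these genes HIDATA in the set concerned, a failed estimate of a very abundant gene, so the myofibre sums and these zeros are not read as a difference. Of the 2 myofibre genes tested in the chronic set, Mb, the oxygen-binding myoglobin, fell to 886 ± 371 FPKM with follistatin, against 3465 ± 719 FPKM in controls (-2.04, adjusted p = 0.0148 by limma). Des, the other, had an estimate above 0 and did not pass.

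A pair of chronic follistatin libraries stood apart. In day 7 replicate 1 and day 14 replicate 2, genes with exons of at least 6742 bases in all lay low relative to genes with at most 2619 bases, by -0.46 and -0.57 in the medians on the log2 scale. The other 12 libraries lay between -0.07 and 0.08 by the same measure within their own set. Of the 16 tested members with at least 6742 exon bases, 9 (Insr, Pik3ca, Pik3r1, Gsk3b, Mtor, Rictor, Rheb, Rps6kb1 and Tsc1) had lower values in both of these libraries than in any of the other 5 chronic libraries, against 1 of the 12 shorter members (Irs2). The other 7 long members, among them Irs1, Igf1 and Akt2, did not, and Akt2 had its highest chronic value in day 7 replicate 1. The pair was picked because long genes lay low in it, and the share over all genes of these lengths was not counted. These counts are not read as a result about the members. The part of this trend in the members' changes was not tested. Each chronic result was therefore also computed without both libraries, an alternative chosen after the data were seen.

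Of the 30 pathway genes, 28 passed the filter of a mean of at least 1 FPKM in each set. Igfbp2, a binding protein, and Sesn2, a stress-induced inhibitor of mTOR signalling, did not. Igfbp2 lay between 0 and 0.469 FPKM in follistatin libraries of day 3 and between 0.273 and 1.15 FPKM in controls, and between 0.12 and 0.176 FPKM against 0 and 0.151 FPKM in the chronic set. Sesn2 lay between 0.593 and 1.21 FPKM in the 8 follistatin libraries and between 0.665 and 1.14 FPKM in the 6 controls. Irs2 passed in the chronic set through its controls, since its follistatin mean there was 0.953 FPKM.

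At day 3, 2 of the 28 tested genes rose and none fell by limma at a Benjamini-Hochberg adjusted p under 0.05, taken over all genes. They were the adaptor gene Irs1 and the mTOR inhibitor gene Ddit4l. The same rule called 1.49% of all 11268 genes tested, 0.923% as higher and 0.568% as lower. At an unadjusted p under 0.05, 6 members were higher and 2 lower, against 8.72% and 6.46% of all genes. Follistatin and control libraries did not overlap for 6 members that were higher and 1 that was lower, against 8.31% and 6.8% of all genes. The members' median log2 fold change was 0.04, and that of all genes 0.01.

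Of the 28 genes, 2 rose and 1 fell in the chronic set. Irs1 and the growth factor gene Igf2 rose, and Pik3ip1, the gene of a membrane protein that inhibits PI3K, fell. Limma called 5.5% of all 11047 genes tested, 2.24% as higher and 3.27% as lower. At an unadjusted p under 0.05, 5 members were higher and 6 lower, against 8.99% and 19.3% of all genes. The groups did not overlap for 4 members that were higher and 7 that were lower, against 8.96% and 21.5% of all genes (30.4% in either direction). The 6 and the 7 lower include Irs2, which passed the filter in this set through its controls. The members' median was -0.26, against -0.09 for all genes, and 21 of 28 lay below 0. After rescaling by the median ratio the members' median was -0.19, with 19 of 28 below 0. Without the pair of libraries with the length trend the members' median was -0.11 and that of all genes -0.07. In that fit Pik3ip1, Tsc1 and Sesn1 fell and Igfbp5 rose, where 4.62% of all genes were called higher and 6.44% lower.

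The counts of members rest on few libraries. At day 3, 1 member was called whichever of the 3 controls was left out. In chronic libraries none was called without control day 7 replicate 1 or without the single control of day 14, and 1 without control day 7 replicate 2 or follistatin day 7 replicate 2. Over all genes the chronic calls were 247 higher and 361 lower as deposited, but 314 higher and 232 lower after rescaling by the median ratio and 414 higher and 326 lower after quantile normalization. Under both scalings Irs1 and Igf2 were called higher and Pik3ip1 lower.

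**Figure D1:**
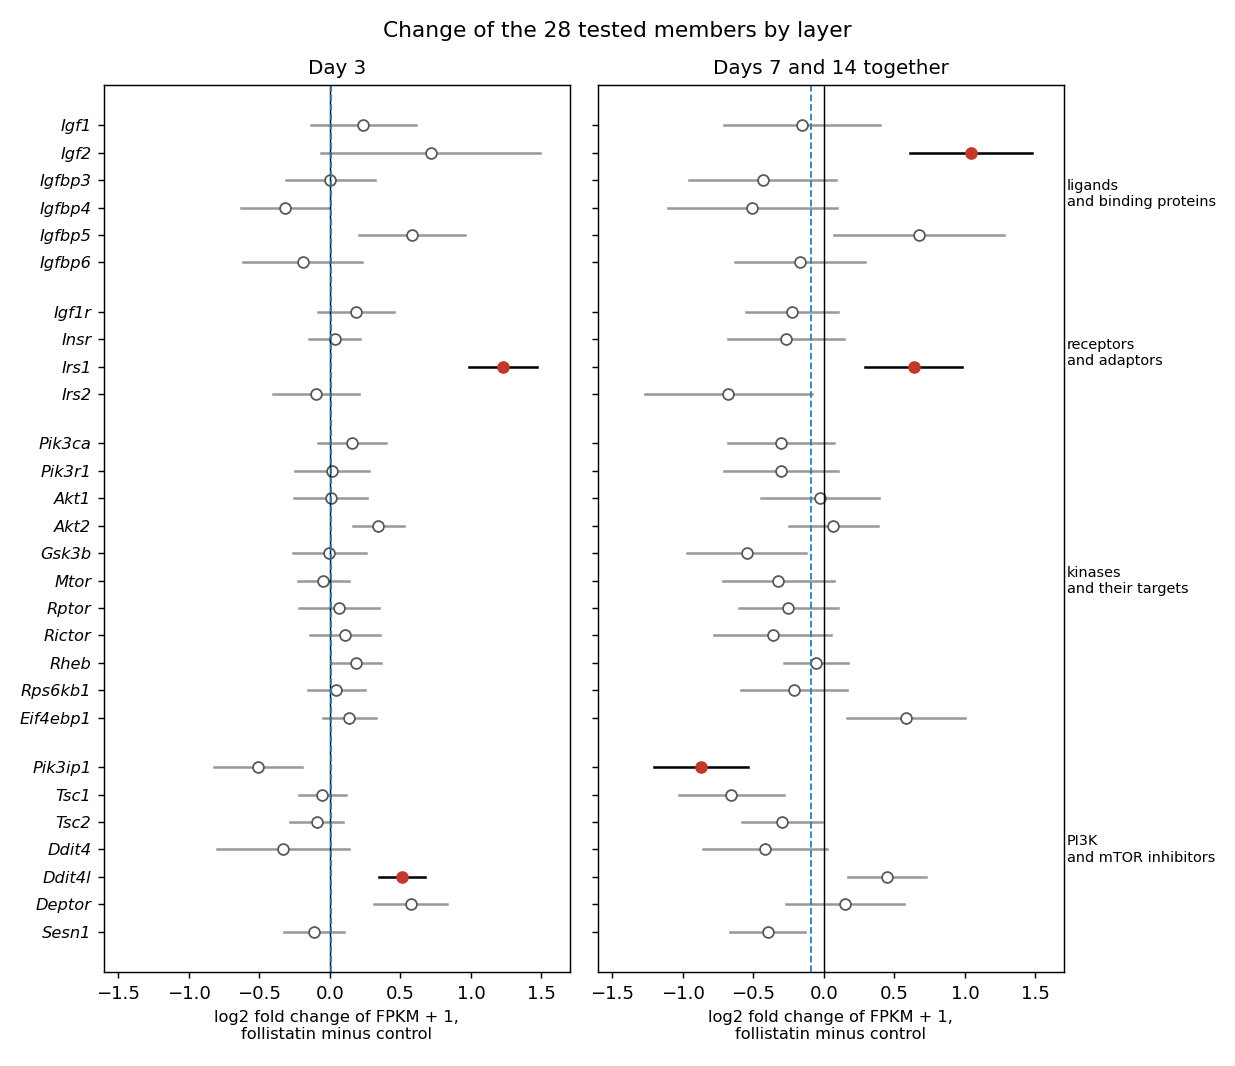
Log2 fold change of FPKM + 1, follistatin minus control, for the 28 tested genes in rows by role, at day 3 (left) and at days 7 and 14 together (right). Points are limma estimates with 95% intervals, filled red points passed the adjusted test, and the dashed blue line is the median of all genes (0.01 and -0.09). Irs1 is the only gene filled in both panels.

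To show the start of the genes that changed, promoter windows of 250 bases before to 50 bases after the annotated start were read from RefSeq on GRCm38.p6, which holds one or more for 27 of the 30 genes. The 3 shown belong to Irs1, the gene that rose in both sets, Ddit4l, which rose at day 3, and Pik3ip1, which fell in the chronic set, while Igf2, which has 4 annotated windows, is not shown. They are chr1:82291390-82291689 on the minus strand, chr3:137623422-137623721 on the plus strand and chr11:3330481-3330780 on the plus strand, each 5′ to 3′, with capitals for the only motif found.
Irs1: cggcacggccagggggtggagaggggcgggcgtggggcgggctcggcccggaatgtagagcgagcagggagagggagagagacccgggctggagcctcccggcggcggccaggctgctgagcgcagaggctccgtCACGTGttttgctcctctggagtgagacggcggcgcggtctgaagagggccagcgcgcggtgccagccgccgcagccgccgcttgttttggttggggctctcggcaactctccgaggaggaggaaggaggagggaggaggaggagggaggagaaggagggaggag
Ddit4l: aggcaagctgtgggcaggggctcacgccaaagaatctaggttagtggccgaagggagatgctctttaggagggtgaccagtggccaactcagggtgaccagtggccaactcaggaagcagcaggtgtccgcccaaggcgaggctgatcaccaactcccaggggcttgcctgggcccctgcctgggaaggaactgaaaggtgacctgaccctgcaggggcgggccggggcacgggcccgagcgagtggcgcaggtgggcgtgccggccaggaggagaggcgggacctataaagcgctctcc
Pik3ip1: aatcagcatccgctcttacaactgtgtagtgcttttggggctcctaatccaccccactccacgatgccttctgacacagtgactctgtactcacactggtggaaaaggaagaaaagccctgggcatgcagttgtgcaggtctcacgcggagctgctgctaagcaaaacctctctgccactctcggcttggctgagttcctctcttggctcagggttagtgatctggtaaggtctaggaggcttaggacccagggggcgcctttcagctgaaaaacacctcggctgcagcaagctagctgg

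The capitals in the Irs1 window mark CACGTG, the E-box of clock factors, which starts 115 bases before the start site. The other motifs searched on both strands were GTAAACA (FoxO), TGATGNAA (C/EBP-ATF), GTCTAGAC (Smad), TGACGTCA (CRE) and the paired half-sites of the glucocorticoid receptor, and none overlaps it. CACGTG stood in a window of 3 of 25 tested members that have one (Irs1, Irs2 and Rheb) and of 12.1% of 8692 tested genes. The FoxO letters stood in windows of Akt1 and Sesn1 and of 3.14% of genes. A match is a description of these letters, and says nothing on binding.

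Among ligands and binding proteins, Igf2 passed the test, in the chronic set alone, and no other of the 6 tested genes passed in either set. Igf2 encodes insulin-like growth factor 2, a ligand known for its role in fetal growth and muscle regeneration. In the chronic set it held 11.1 and 12.7 (day 7) and 9.11 and 10.4 FPKM (day 14) with follistatin, against 6.28, 4.94 and 3.29 FPKM in controls. All 4 follistatin libraries lay above the 3 controls, at means of 10.8 ± 1.51 and 4.84 ± 1.5 FPKM. Its log2 fold change of 1.04 passed (SE 0.19, adjusted p = 0.0251 by limma) and was 1.05 without the libraries with the length trend, where it missed the threshold (adjusted p = 0.0579). It also missed it without control day 7 replicate 1 (0.0636), control day 7 replicate 2 (0.0862), the control of day 14 (0.0792) or follistatin day 7 replicate 2 (0.0509). At day 3 the Igf2 groups overlapped, at 19.0, 31.8, 16.9 and 12.1 FPKM with follistatin and 7.98, 9.30 and 18.0 FPKM in controls (log2 fold change 0.71, adjusted p = 0.369). The annotated exons of Igf2 share 3596 bases with Gm49394 on the same strand, so the counting can mix both genes.

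Igf1, the main growth factor of muscle in this pathway, did not pass in either set. It held 6.81, 5.93, 5.02 and 6.35 FPKM with follistatin at day 3, against 5.37, 3.59 and 6.14 FPKM in controls (0.24, 95% interval -0.14 to 0.61, adjusted p = 0.549 by limma). At days 7 and 14 it held 4.31 and 6.16 (day 7) and 2.83 and 3.73 FPKM (day 14) with follistatin, against 5.12 and 6.01 (day 7) and 3.30 FPKM (day 14) in controls. The groups overlapped in both sets, and in both treatments the day 14 libraries lay below those of day 7. The chronic estimate was -0.15 with an interval of -0.70 to 0.40.

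Binding proteins carry the growth factors and can hold them from their receptors or present them. Igfbp5, the binding protein with the highest level, held between 140.4 and 229.9 FPKM with follistatin and between 109.9 and 139.7 FPKM in controls at day 3, without overlap (0.58, adjusted p = 0.144). Over days 7 and 14 its groups overlapped, at 169 to 338 FPKM with follistatin and 131 to 200 FPKM in controls (0.67, adjusted p = 0.142). The change reached the threshold without follistatin day 7 replicate 1, the lowest of the 4 follistatin libraries (0.90, adjusted p = 0.0336), and without both libraries with the length trend (0.84, adjusted p = 0.04999). Igfbp4, which blocks IGF action until it is cleaved, averaged 14.7 ± 1.6 FPKM with follistatin and 18.6 ± 3.75 FPKM in controls at day 3 (-0.32, adjusted p = 0.319), and 11.4 ± 3.89 and 16.1 ± 3.19 FPKM in the chronic set (-0.51, adjusted p = 0.235), with overlap in both. Igfbp3, the main carrier in blood, and Igfbp6, which prefers Igf2, had estimates of 0.00 and -0.19 at day 3 and of -0.43 and -0.17 in the chronic set, with overlapping groups in both sets. Whether fewer cells of a type or less mRNA per cell lies behind a value cannot be told apart in such whole muscle RNA.

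Irs1 had the largest rise of the 28 tested genes at day 3. Its protein docks PI3K to the insulin and IGF1 receptors, and the gene lies at chr1:82233101-82291416 on the minus strand of GRCm38. Its promoter window alone of the 3 shown holds a motif that was searched for. At day 3 it held 31.7, 26.3, 32.5 and 27.5 FPKM with follistatin, against 10.6, 12.4 and 13.0 FPKM in controls. The lowest follistatin library lay far above the highest control. The means were 29.5 ± 3.07 FPKM (n = 4) and 12 ± 1.27 FPKM (n = 3), a ratio of 2.46, for a log2 fold change of 1.23 (SE 0.11, adjusted p = 0.00222 by limma). It passed in every alternative run on this set.

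In chronic libraries Irs1 was again higher, by a smaller amount. It held 25.3 and 33.5 (day 7) and 24.6 and 26.5 FPKM (day 14) with follistatin, against 17.8 and 19.7 (day 7) and 14.5 FPKM (day 14) in controls. The groups did not overlap, at means of 27.5 ± 4.08 and 17.3 ± 2.64 FPKM, which gave a log2 fold change of 0.64 (SE 0.15, adjusted p = 0.0497). This call lies at the threshold and was lost without any 1 of the 7 libraries (adjusted p between 0.0516 and 0.194), while the estimate lay between 0.52 and 0.73. Without the libraries with the length trend it was 0.71 (adjusted p = 0.0626). The difference of the effects, chronic minus day 3, was -0.59 (SE 0.19, unadjusted p = 0.00715) and did not pass over all genes (adjusted p = 0.217). Exons of Irs1 share 2822 bases with Gm9747 on the other strand, and the strand setting of the counting is not given in the sources used here.

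The other adaptor and both receptors did not pass. Irs2, the second adaptor, averaged 2.10 ± 0.354 FPKM with follistatin and 2.31 ± 0.247 FPKM in controls at day 3 (-0.10, adjusted p = 0.787). At days 7 and 14 Irs2 held 0.824, 1.26, 1.30 and 0.435 FPKM with follistatin, all below the controls at 1.78, 1.37 and 3.37 FPKM, and the estimate was -0.68 (adjusted p = 0.137), or -0.43 without the libraries with the length trend. At such low levels the added 1 shrinks the value, since the ratio of the means was 0.438 and the estimate with a pseudocount of 0.1 was -1.11 (adjusted p = 0.13). It was -0.42 without the control of day 14, the highest of the 3 controls. Irs2 passed the filter in the chronic set through its controls, where it was high, so this difference is not read as a result.

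Igf1r, the IGF1 receptor, held 2.88, 2.83, 2.53 and 2.27 FPKM with follistatin at day 3 and 1.99, 2.46 and 2.11 FPKM in controls (0.19, adjusted p = 0.517). At days 7 and 14 it held 1.69, 1.78, 1.47 and 1.07 FPKM with follistatin and 2.16, 1.77 and 1.81 FPKM in controls (-0.22, adjusted p = 0.324). The groups overlapped each time. Insr, the insulin receptor, held 17.6, 15.1, 14.9 and 16.1 FPKM with follistatin at day 3 and 15.2, 15.7 and 15.7 FPKM in controls (0.03, 95% interval -0.15 to 0.21). Over days 7 and 14 its 2 lowest values, 9.52 and 9.44 FPKM, were those of the libraries with the length trend, while the other follistatin libraries held 14.0 and 14.5 FPKM and the controls 16.2, 13.5 and 13.2 FPKM. The chronic estimate for Insr was -0.27 with all libraries and 0.00 without that pair.

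**Figure D2:**
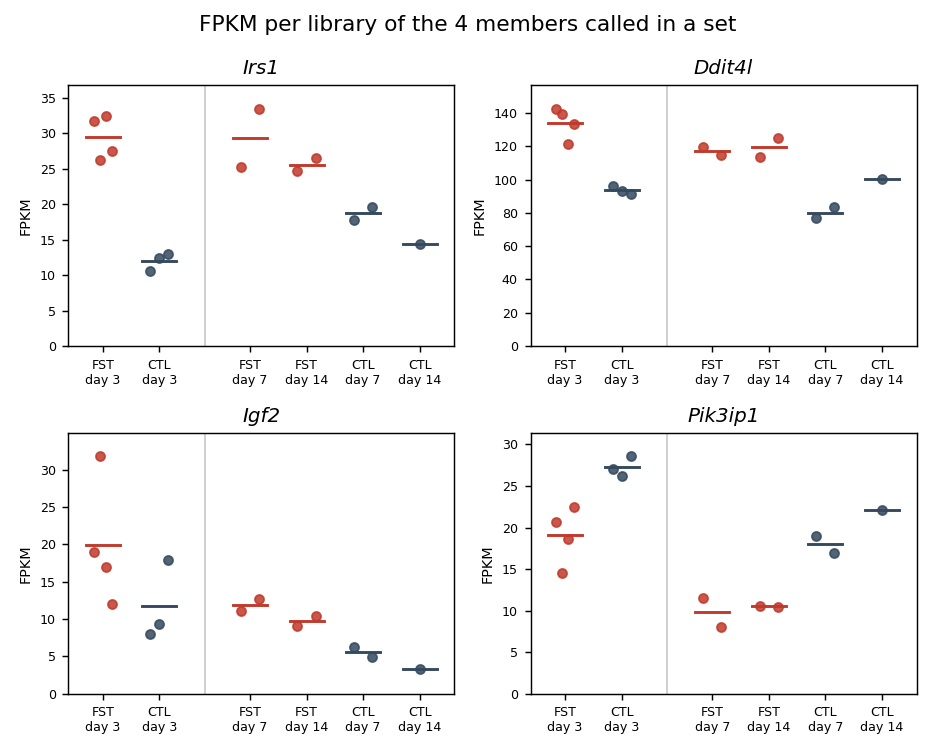
FPKM of Irs1, Ddit4l, Igf2 and Pik3ip1 in each library, with follistatin (FST, red) left of control (CTL, dark blue), day 3 left of the grey line and days 7 and 14 right of it. Points are libraries and bars are means. Irs1 lay between 26.3 and 32.5 FPKM with follistatin at day 3 and between 10.6 and 13.0 FPKM in controls.

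None of the 11 kinases and targets passed in either set. At day 3 their median log2 fold change was 0.06, with 9 above 0, or 7 above 0 after rescaling by the median ratio. In the chronic set it was -0.25, with 9 below 0, or 7 below 0 after that rescaling. The chronic median was -0.07 without the libraries with the length trend, with 5 above 0. In 1 fit of all 14 libraries, Eif4ebp1 (adjusted p = 0.0156 by limma) and Gsk3b (0.0304) passed in the chronic set. That fit called 2071 of 11306 genes in this set.

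Akt2, the Akt kinase known for insulin-stimulated glucose uptake, held 71.6, 86.6, 85 and 82.1 FPKM with follistatin at day 3, against 61.8, 63.3 and 66.1 FPKM in controls. The groups did not overlap, and the estimate of 0.34 missed the threshold (SE 0.08, adjusted p = 0.0857). It reached it without follistatin day 3 replicate 1, the lowest of the 4 (0.40, adjusted p = 0.0474). In chronic libraries Akt2 held 111 and 105 (day 7) and 84.9 and 82.2 FPKM (day 14) with follistatin, against 87.4, 89.4 and 94.9 FPKM in controls (0.07, adjusted p = 0.755). Here both day 7 follistatin libraries lay above the 3 controls and both of day 14 below them.

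Akt1, the Akt kinase known for growth, held 22.2, 27.3, 29.8 and 22.6 FPKM with follistatin at day 3 and 25.6, 23.7 and 26.2 FPKM in controls. In the chronic set it held 31.6, 30, 23.2 and 18.9 FPKM with follistatin and 26.0, 27.5 and 24.1 FPKM in controls. The estimates were 0.01 (95% interval -0.25 to 0.26) and -0.02 (-0.44 to 0.39), the sign changed with the scaling in both sets, and the groups overlapped. As with Akt2, both day 7 follistatin libraries lay above the controls and both of day 14 below them.

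Mtor, the kinase of both mTOR complexes, held 9.02, 8.87, 9.81 and 8.46 FPKM with follistatin at day 3 and 9.57, 9.57 and 8.91 FPKM in controls (-0.04, 95% interval -0.23 to 0.14). At days 7 and 14 it held 6.34, 7.22, 7.41 and 4.28 FPKM with follistatin and 8.74, 7.89 and 7.39 FPKM in controls (-0.32, adjusted p = 0.25), or -0.11 without the libraries with the length trend. The 4.28 FPKM belong to follistatin day 14 replicate 2. Rptor and Rictor, the scaffolds of mTOR complexes 1 and 2, had estimates of 0.06 and 0.11 at day 3, and of -0.25 and -0.36 in the chronic set, or -0.11 for each without that pair.

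Eif4ebp1, which binds the cap-binding factor eIF4E and blocks translation until mTOR phosphorylates it, did not overlap in the chronic set. It held 45.9, 31.4, 27.7 and 41.2 FPKM with follistatin, against 23.7, 21.9 and 25.4 FPKM in controls (0.58, SE 0.18, adjusted p = 0.0906). The 2 highest values were those of the libraries with the length trend, and the exons of Eif4ebp1 come to 2196 bases. Without them the estimate was 0.31 (adjusted p = 0.0995). Gsk3b, a kinase that Akt inhibits, had its lowest values in the same pair of libraries, at 6.09, 8.89, 10.4 and 6.12 FPKM with follistatin and 12.5, 11 and 11.6 FPKM in controls (-0.55, adjusted p = 0.106, or -0.26 without that pair).

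The remaining 4 genes of this group did not pass. Rheb, the GTPase that activates mTOR complex 1, held between 55.8 and 58.4 FPKM with follistatin at day 3 and between 44.7 and 53.5 FPKM in controls, without overlap (0.19, adjusted p = 0.287), and its chronic groups overlapped (-0.05). Pik3ca and Pik3r1, the catalytic and regulatory subunits of PI3K, had estimates of 0.16 and 0.02 at day 3 and of -0.30 for each in the chronic set, or -0.07 and -0.15 without the libraries with the length trend. Rps6kb1, the S6 kinase downstream of mTOR, had estimates of 0.05 and -0.21. Pik3ca, Pik3r1 and Rps6kb1 overlapped between groups in both sets.

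**Figure D3:**
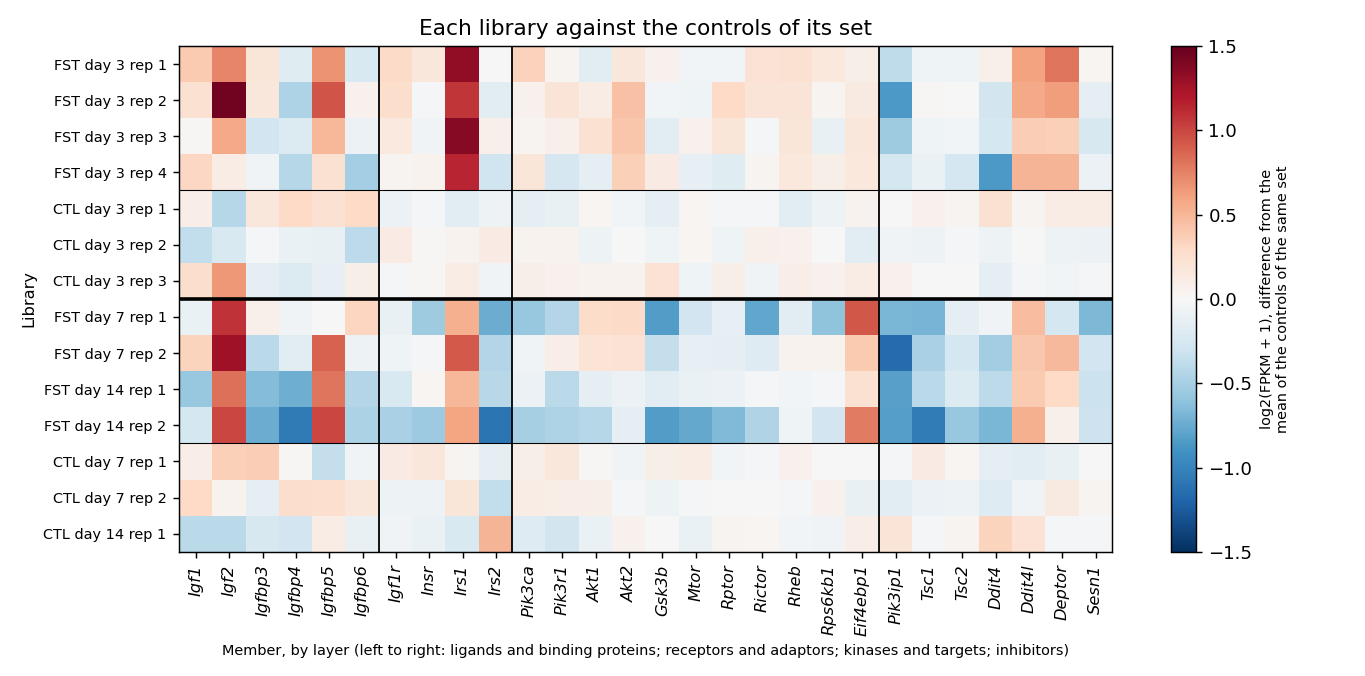
Each of the 28 tested genes (columns, by role) in each of the 14 libraries (rows, day 3 above the thick line, follistatin above control), as log2(FPKM + 1) minus the mean of the controls of the same set. Red is higher and blue is lower than those controls. The follistatin libraries day 7 replicate 1 and day 14 replicate 2 are blue for Gsk3b (6.09 and 6.12 FPKM) and red for Eif4ebp1 (45.9 and 41.2 FPKM).

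The inhibitors moved in different directions. Ddit4l rose at day 3 and Pik3ip1 fell in the chronic set, while the median of the 7 tested was -0.09 at day 3 and -0.40 in the chronic set, or -0.31 without the libraries with the length trend.

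Ddit4l, a relative of Ddit4 that inhibits mTOR complex 1 and is abundant in muscle, held 143, 139, 121 and 133 FPKM with follistatin at day 3, against 96.2, 93.4 and 91.7 FPKM in controls. The groups did not overlap, at means of 134 ± 9.47 and 93.7 ± 2.31 FPKM, which gave a log2 fold change of 0.51 (SE 0.07, adjusted p = 0.0133 by limma). The call was lost without control replicate 1 (adjusted p = 0.062), 2 (0.0709) or 3 (0.0627), at estimates between 0.49 and 0.53. Over days 7 and 14 Ddit4l held 119, 115, 114 and 125 FPKM with follistatin, against 76.8, 83.4 and 101 FPKM in controls, again without overlap (0.45, SE 0.12, adjusted p = 0.0657). The difference of both effects was -0.06 (95% interval -0.35 to 0.23).

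Pik3ip1 was the 1 member that passed as lower in the chronic set. It held 11.6 and 8.06 (day 7) and 10.5 and 10.5 FPKM (day 14) with follistatin, against 19.0 and 16.9 (day 7) and 22.1 FPKM (day 14) in controls. The groups did not overlap, at means of 10.2 ± 1.48 and 19.3 ± 2.62 FPKM, which gave a log2 fold change of -0.87 (SE 0.14, adjusted p = 0.0193 by limma). It was -0.98 without the libraries with the length trend (adjusted p = 0.0276). The call was lost without control day 7 replicate 1 (adjusted p = 0.106) or the control of day 14 (0.0923). At day 3 it held 20.7, 14.5, 18.6 and 22.5 FPKM with follistatin, all below the controls at 27.1, 26.2 and 28.6 FPKM, and did not pass (-0.51, adjusted p = 0.127). The difference of both effects was -0.36 (adjusted p = 0.425).

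Tsc1 and Tsc2 form the complex that switches off Rheb. Tsc1 held 7.11, 8.39, 8.91 and 5.37 FPKM with follistatin in the chronic set, against 13.3, 11.3 and 11.8 FPKM in controls, without overlap. The estimate of -0.66 missed the threshold closely (SE 0.16, adjusted p = 0.0557 by limma), and without the libraries with the length trend it was -0.44 and passed (adjusted p = 0.043). Tsc1 passed in 5 alternatives, that fit among them, and in none that left out 1 library (adjusted p between 0.0546 and 0.221). Tsc1 did not pass at day 3, at 12.9 ± 0.459 FPKM with follistatin and 13.4 ± 0.670 FPKM in controls (-0.05), and the difference of effects was -0.60 (adjusted p = 0.203). Tsc2 averaged 19.0 ± 2.46 FPKM with follistatin and 23.3 ± 1.11 FPKM in controls in the chronic set (-0.29, adjusted p = 0.166), and its exons share 693 bases with those of Pkd1.

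Deptor, a protein that binds and inhibits both mTOR complexes, held 29.9, 26.4, 21.7 and 24.2 FPKM with follistatin at day 3, against 18.2, 15.9 and 16.2 FPKM in controls. The groups did not overlap, and the estimate of 0.57 lay just outside the threshold (SE 0.11, adjusted p = 0.0538). It passed without follistatin replicate 3 (0.65, adjusted p = 0.0414) and in 5 other alternatives, with adjusted p between 0.0225 and 0.0478. In chronic libraries Deptor overlapped, at 13.0 to 22.6 FPKM with follistatin and 14.5 to 17.4 FPKM in controls (0.15). Without the libraries with the length trend the follistatin values were 22.6 and 19.7 FPKM, above all controls. The estimate was then 0.40 and did not pass (adjusted p = 0.0708 by limma). Sesn1, a stress-induced protein that inhibits mTOR complex 1, held between 5.30 and 7.19 FPKM with follistatin in the chronic set and between 8.79 and 9.33 FPKM in controls. That difference of -0.40 missed the threshold (adjusted p = 0.0804) and was -0.31 and called without the libraries with the length trend (adjusted p = 0.049). Ddit4, a stress-induced inhibitor of mTOR complex 1, averaged 10.6 ± 2.93 FPKM with follistatin and 13.4 ± 2.03 FPKM in controls at day 3 and 2.46 ± 0.665 and 3.61 ± 0.985 FPKM in the chronic set, with overlap in both (-0.33 and -0.41).

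**Figure D4:**
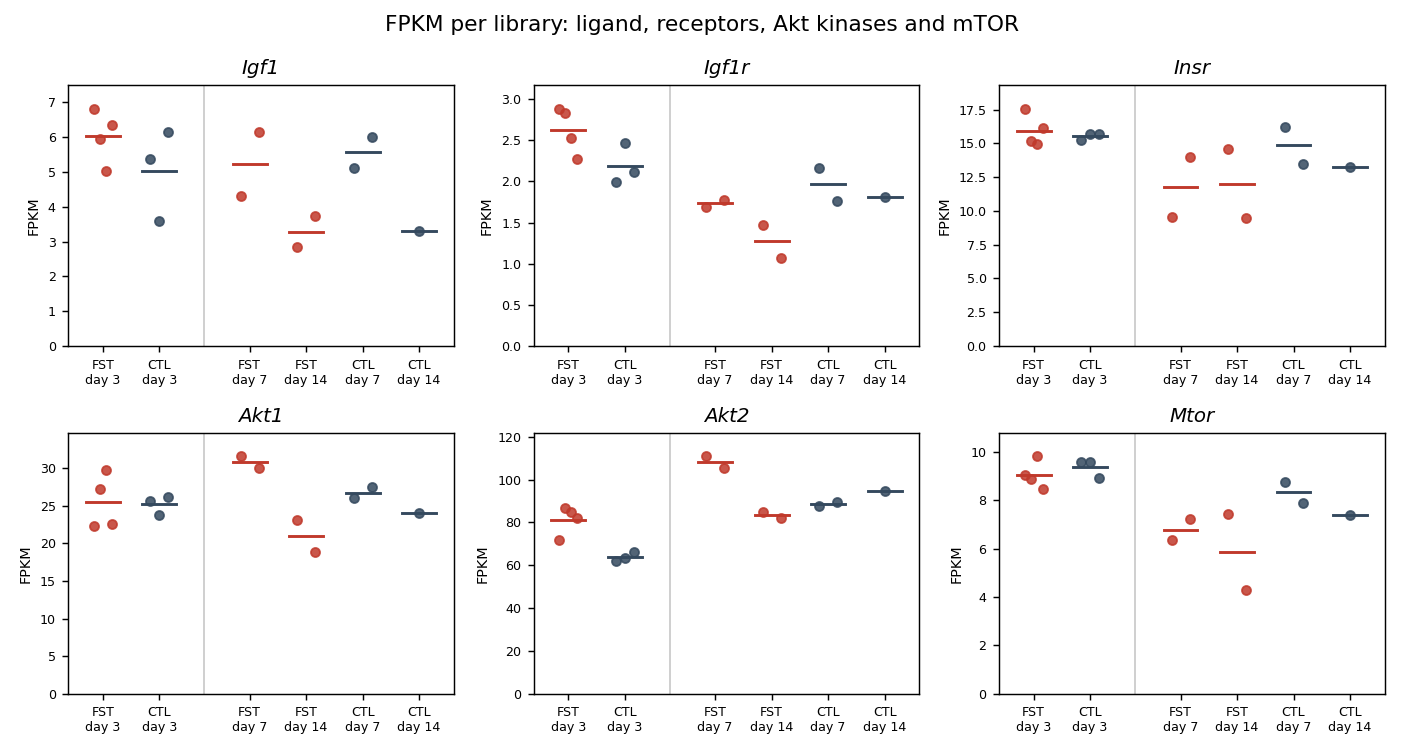
FPKM per library of the 6 core genes Igf1, Igf1r, Insr, Akt1, Akt2 and Mtor, with follistatin (FST, red) left of control (CTL, dark blue) in each set. Points are libraries and bars are means. With days 7 and 14 joined as tested, only Akt2 at day 3 shows groups that do not overlap, at 71.6 to 86.6 FPKM with follistatin and 61.8 to 66.1 FPKM in controls. Among the day 7 libraries alone, 2 with follistatin and 2 controls, Akt1 and Akt2 lay higher and Mtor lower with follistatin, also without overlap.

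The difference of the effects between the sets was tested over all 14 libraries. No member passed (0 of 28 by limma, against 0.0884% of 11306 genes), and at an unadjusted p under 0.05 there were 1 higher (Eif4ebp1) and 6 lower (Tsc1, Irs1, Gsk3b, Igf1r, Pik3ca and Rictor), against 2.99% and 11.9% of all genes. The members' median difference was -0.29 and that of all genes -0.11. After rescaling by the median ratio the median of all genes was 0.00, and at the same unadjusted threshold 1 member was higher and 2 were lower. Without the libraries with the length trend none was higher and 2 were lower.

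The authors' deposited table, made with Cuffdiff, called 6 of 28 members at day 3 at a q under 0.05, all higher (Irs1, Ddit4l, Deptor, Akt2, Igf2 and Igfbp5), where 3.06% of 9625 genes were higher and 3.19% lower (6.25% in all). For the chronic set the authors' deposited table called 4 of 29 higher (Igf2, Igfbp5, Irs1 and Eif4ebp1) and 4 lower (Tsc1, Irs2, Gsk3b and Rictor), where 6.64% and 11.2% of 12664 genes were. In the authors' deposited table Irs1 had log2 fold changes of 1.26 at day 3 (q = 0.00191) and 0.65 in the chronic set (q = 0.00284). Pik3ip1 had -0.93 in the chronic set with a q of 0.137 in the authors' deposited table, whose locus for it, chr11:3202353-3479831, is wider than the annotated gene at chr11:3330401-3342971.

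Other genes of the same pathway were counted from lists of 130 symbols, of which 127 are in the files. At day 3, 109 were tested, of which 2 rose and 2 fell, where 0.923% and 0.568% of all genes did. Prkag2, a regulatory subunit of the energy sensor AMPK, averaged 14.6 ± 1.96 FPKM with follistatin and 7.37 ± 1.03 FPKM in controls (0.90, adjusted p = 0.0142 by limma). Cav3, the caveolin of muscle membranes, averaged 59.4 ± 5.89 FPKM with follistatin and 42.8 ± 1.44 FPKM in controls (0.46, adjusted p = 0.0464). Tbc1d1, an Akt and AMPK substrate that restrains glucose transporter traffic, fell to 15.2 ± 1.71 FPKM with follistatin, against 32.1 ± 1.23 FPKM in controls (-1.04, adjusted p = 0.0029). Ulk1, the autophagy kinase that mTOR inhibits, also fell (-0.70). Tbc1d1 and Ulk1 were called whichever library was left out, while Prkag2 was lost without control replicate 1 or 2 and Cav3 without any 1 of 6 libraries and after rescaling.

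Of 107 tested in the chronic set, 2 rose and 9 fell, where 2.24% and 3.27% of all genes did. Prkag2 rose again (0.77, adjusted p = 0.013), as did Igf2bp2, an RNA-binding protein known to bind Igf2 mRNA, at 3.49 ± 0.911 FPKM with follistatin and 0.883 ± 0.421 FPKM in controls (1.25, adjusted p = 0.0174). Igf2bp2 passed the filter on low values through its follistatin libraries, where it was high, so a gene tested in this way had to differ. Tbc1d1 fell to 9.38 ± 1.51 FPKM with follistatin, against 31.5 ± 7.03 FPKM in controls (-1.64, adjusted p = 0.00576). Sgk1, an Akt-related kinase (-0.89), Inpp5k, a phosphatase of PI3K products (-0.62), Pik3c3, the PI3K of autophagy (-0.51), and Gab1, an adaptor (-0.68), fell as well. Among mTOR targets Ulk1 (-0.86), Lpin1 (-0.83), Maf1 (-0.69), a repressor of RNA polymerase III, and the translation factor Eif4b (-0.54) fell. All 11 were called in the same direction without the libraries with the length trend, but Eif4b and Maf1 were lost after rescaling by the median ratio, and Tbc1d1 alone was called whichever library was left out. Of 20 called chronic genes taken from these, the FoxO, ATF4 and glucocorticoid lists and the cell markers, 19 were lost without control day 7 replicate 1, 18 without the control of day 14, 15 without control day 7 replicate 2 and 2 to 8 without a follistatin library.

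Of the genes that FoxO factors are known to induce, none rose in either set. At day 3, 1 of 20 fell, where 0.568% of all genes did. It was Trim63, a ubiquitin ligase of muscle protein breakdown, at 93.3 ± 5.35 FPKM with follistatin and 133 ± 6.13 FPKM in controls (-0.50, adjusted p = 0.013 by limma). The call was lost without control replicate 1 or 2. Of the same 20 genes, 7 fell in the chronic set, where 3.27% of all genes did, at a list median of -0.41, among them the ubiquitin ligase Fbxo32, at 20.0 ± 4.62 FPKM with follistatin and 49.1 ± 3.99 FPKM in controls (-1.28, adjusted p = 0.0117), Foxo4 (-1.13), Cat (-0.74) and Map1lc3b (-0.60). Without the libraries with the length trend 7 fell and 1 rose, where 6.44% and 4.62% of all genes did. Of ATF4 targets, Chac1 fell at day 3 (1 of 20, against 0.568% of all genes, lost without control replicate 1). Vldlr fell in the chronic set (1 of 19, against 3.27% of all genes). The median of the ATF4 list was 0.05 at day 3 and 0.13 in the chronic set, where 10 of 19 lay above 0. There the groups did not overlap for 6 genes that were higher and 3 that were lower, against 8.96% and 21.5% of all genes. The members Ddit4, Eif4ebp1 and Sesn2 are also on the ATF4 list. Of glucocorticoid-induced genes none of 18 passed at day 3. In the chronic set 3 of 17, Sgk1, Klf9 and Klf15, fell, where 3.27% of all genes did, with Klf15 also on the FoxO list. After rescaling by the median ratio Map1lc3b (adjusted p = 0.0691 by limma), Vldlr (0.0505) and Klf15 (0.0559) were lost. Klf15 was also lost by quantiles (0.061) and without the libraries with the length trend (0.0769). That last fit left 2 of 17, where 6.44% of all genes fell.

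**Figure D5:**
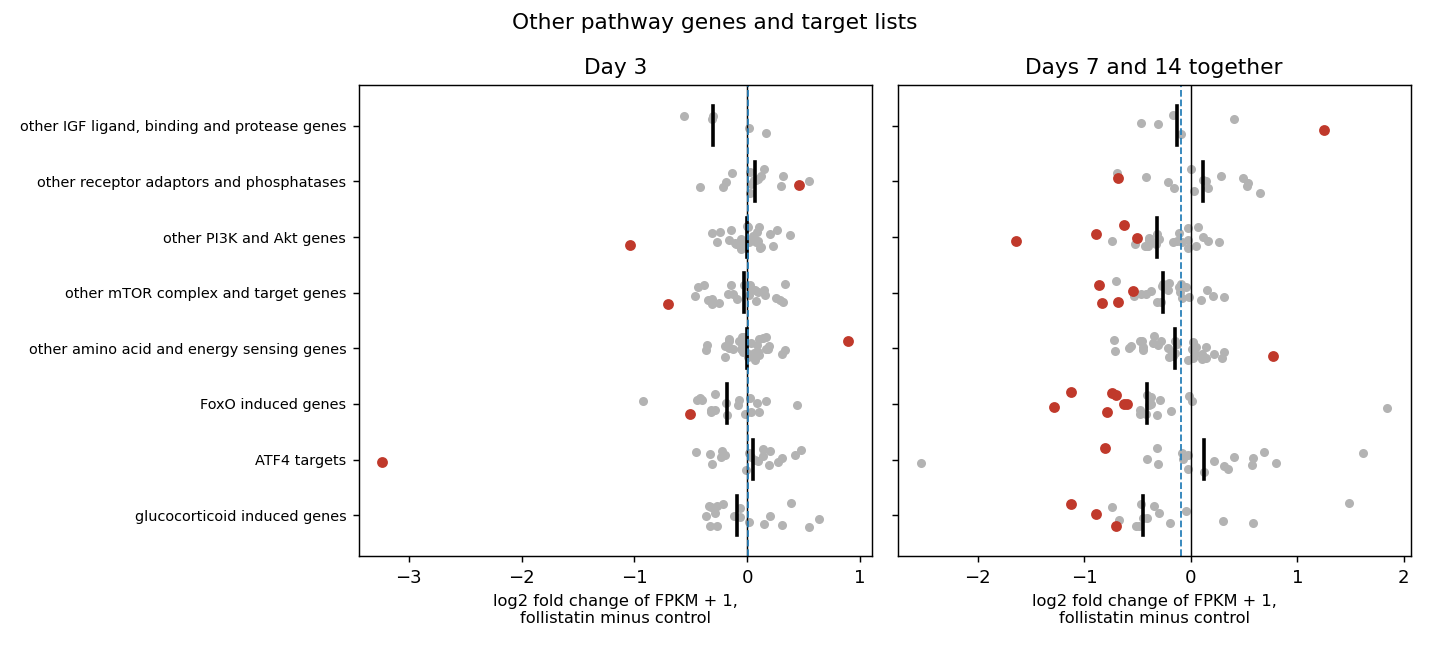
Log2 fold change of FPKM + 1, follistatin minus control, of the tested genes of each list at day 3 (left) and at days 7 and 14 together (right). Points are genes, red points passed the adjusted test, black bars are list medians and the dashed blue line is the median of all genes. The FoxO list has a median of -0.18 at day 3 and -0.41 in the chronic set.

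Markers of other cell types also differed between groups. The 10 endothelial markers summed to between 152 and 176 FPKM with follistatin and between 184 and 198 FPKM in controls at day 3, with all 10 estimates below 0, and to between 108 and 173 against 186 and 245 FPKM in the chronic set. The 8 smooth muscle and pericyte markers summed to between 197.9 and 251.0 FPKM with follistatin and between 250.7 and 277.7 FPKM in controls at day 3, where the ranges just overlap, and to between 47.9 and 116 against 148 and 201 FPKM in the chronic set. At day 3, 7 of these 8 lay below 0, and 5 were lower at an unadjusted p under 0.05 by limma, against 6.46% of all genes. The groups did not overlap for 5 of the 8, all lower, against 6.8% of all genes. In the chronic set 8 of 10 endothelial and 6 of 8 smooth muscle and pericyte markers were lower at that unadjusted threshold, against 19.3%. The 10 fibroblast and 10 macrophage marker sums overlapped between groups in both sets, as did those of 5 satellite cell and 6 tendon markers. All 8 macrophage markers tested in the chronic set had estimates above 0 (median 0.55, also with all 8 above 0 under both other scalings), none of which passed. Of the 10 fibroblast markers, 9 lay below 0 at day 3 (median -0.22), 4 of them at an unadjusted p under 0.05, against 6.46% of all genes. The 6 Schwann cell markers summed to between 19.6 and 35.6 FPKM with follistatin and between 41.2 and 91.7 FPKM in controls in the chronic set, and the 5 adipocyte markers to between 213 and 360 against 376 and 481 FPKM. Adipocyte sums at day 3 also did not overlap, at 336 to 366 FPKM with follistatin and 397 to 447 FPKM in controls. Of the markers of these other cell types none is at 0 in every library and 1 passed the test (Tek, an endothelial receptor, lower in the chronic set). Without the libraries with the length trend the endothelial genes Esam, Tie1 and Egfl7 and the tendon gene Comp passed as lower, and Tek did not. The part of these cells in the members' changes was not tested.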

How the data were processed

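Poly(A) RNA of 14 muscle samples was extracted with Trizol and made into libraries with the Illumina TruSeq RNA kit, per the labels' protocols. Reads were aligned with TopHat to mm10 and FPKM computed with Cuffdiff, per the submitters' processing notes; versions, annotation and strand setting are not given in the sources used here. Each deposited file gives a library's FPKM by gene, and the authors' deposited tables give Cuffdiff log2 fold changes, p-values and q-values for each set. Each file lists 24386 genes; 27 with symbols turned into dates were left out. Genes that the authors marked HIDATA (4 at day 3, 31 in the chronic set) can be listed at 0 and were left out of the tests. FPKM divide by transcript length and by library total, so a few very abundant genes can shift all others.

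Each set was fitted with limma 3.58.1 in R 4.3.3 (trend) on log2(FPKM + 1) of the genes whose mean reached 1 FPKM, as follistatin minus control, two-sided. Calls were made at a p under 0.05 after Benjamini-Hochberg adjustment over all genes. Because of the added 1, changes of genes with low levels come out smaller than their ratio. The difference between the sets was an interaction over all 14 libraries. The steps were tested on simulated data.

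Read numbers are unknown. Steps between values under 0.5 FPKM gave relative depths of 0.685 to 1.27 for the day 3 libraries against control day 3 replicate 1, with 79.2% to 83.5% of such values at whole ratios (up to 6, tolerance 0.02 on the log2 scale). In the chronic set 52.9% to 62.8% were, so depth there is uncertain. Libraries listed 15766 to 17161 genes above 0 at day 3 and 16158 to 20283 in the chronic set, where control day 7 replicate 1 had the fewest.

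The members, the other lists and the rule for named genes were chosen with earlier results of these data known. The rule gives values in every library for members called in a set and for Igf1, Igf2, Igf1r, Insr, Akt1, Akt2 and Mtor, and names of the other lists at most the 4 called genes with the smallest p per list and set; further members were given in full after their values were seen. Exon lengths and positions are from GENCODE M21 on GRCm38. Alternatives were a pseudocount of 0.1, a filter at 5 FPKM or none, quantile normalization, rescaling by the median ratio, leaving out 1291 small RNA genes, keeping HIDATA genes, robust eBayes, day as a covariate, a replicate block, day 7 alone, 1 fit of all 14 libraries, leaving out each library, and leaving out follistatin day 7 replicate 1 and day 14 replicate 2.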

Additional observations from a re-analysis of the deposited data

Results flagged for a closer look

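In 60 groups of 4 follistatin libraries (30 genes in each set), the highest or lowest value was compared with the others by Dixon's test, which picks out about 5% of groups by chance. Of these, 4 chronic groups had a value far from the rest. Igfbp2 was highest in follistatin day 14 replicate 1, at 0.176 FPKM against 0.12 to 0.123 FPKM in the other 3, all under the filter on low values. Pik3r1, the regulatory subunit of PI3K, was highest in follistatin day 7 replicate 2, at 7.35 FPKM. Rptor was lowest in follistatin day 14 replicate 2, at 4.34 FPKM, and Sesn1 lowest in follistatin day 7 replicate 1, at 5.30 FPKM. These last libraries are the pair in which long transcripts lay low.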

How the results depend on the processing

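Over all genes, day 3 had 168 calls; it had 266 without small RNA genes, 19 with the replicate block (165 over the same 6 libraries without it) and 39 to 165 without any 1 library. Called members at day 3 numbered 2, but 1 with the replicate block and 1 to 3 without any 1 library. The chronic set had 608 calls, against 284 with no filter, 964 without small RNA genes, 164 with the block (480 over the same 6 libraries without it), 2071 with all 14 libraries in 1 fit, 30 with day 7 alone, 1216 without the pair of libraries with the length trend and 43 to 907 without any 1 library. Chronic members called numbered 3, against 9 in the fit of all 14, 0 with day 7 alone and 0 to 3 without any 1 library. The 9 were Irs1, Igf2, Eif4ebp1 and Ddit4l as higher and Pik3ip1, Irs2, Gsk3b, Tsc1 and Sesn1 as lower. Over all 11306 genes that fit called 613 higher and 1458 lower. The difference between the sets had 10 calls, against 2 with no filter, 6 after rescaling, 24 with HIDATA genes kept, 3 with the block and 2 to 32 without any 1 library, and none was a member (0 in every alternative run). Deviations of same-numbered libraries from their group means had r of -0.056 to -0.033 at day 3 and 0.018 to 0.107 in the chronic set. Libraries with different numbers had r of -0.051 to 0.089 and of -0.12 to 0.03. So few pairs cannot tell whether same-numbered libraries belong together, and the labels do not say. The fit with the block also left out follistatin day 3 replicate 4 and day 14 replicate 2, whose numbers no control of that day has. In it Ddit4l at day 3 had an adjusted p of 0.129 (0.0362 over the same libraries without the block) and chronic Irs1 0.0663 (0.0755 over the same libraries, so its call was lost there too). Irs1 in the chronic set was also lost with no filter (0.0802) and with day 7 alone (0.269). Of 1578 values of single genes under the alternatives, 1357 kept direction and side of the threshold, 164 lost a call, 20 gained one and 37 changed sign, all 37 of genes that were not called. Of the genes named from other lists, the fit with the block lost 5 of 6 calls at day 3 and 14 of 20 in the chronic set (1 and 3 over the same libraries without it), and day 7 alone lost 19 of 20. The members that changed sign at day 3 after rescaling and after quantile normalization were Igfbp3 (-0.0138 and -0.008), Pik3r1 (-0.0023 and -0.0103) and Akt1 (-0.0114 and -0.039), and Insr by quantiles alone (-0.0004). Without any 1 library, day 3 values ranged from -0.072 to 0.10 for Igfbp3, -0.0107 to 0.0629 for Insr, -0.0461 to 0.102 for Pik3r1, -0.0691 to 0.0656 for Akt1, -0.0739 to 0.104 for Gsk3b and -0.0149 to 0.143 for Rptor. Chronic Akt1 was 0.0528 after rescaling, 0.0091 by quantiles, 0.112 with the block, 0.0392 with day as a covariate, 0.195 with day 7 alone, 0.0285 without the pair and -0.125 to 0.112 without any 1 library. Rheb was 0.0237 after rescaling; without the pair Rheb was 0.0038, Rps6kb1 0.0212 and Insr 0.0007. Igfbp6 was 0.0643 with day 7 alone, and Akt2 ranged from -0.0045 to 0.138 without any 1 library. The cause of these changes was not tested. Read numbers are unknown, so the precision of genes near 1 FPKM, such as Irs2 and Igf1r, cannot be stated.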
